A study of Rattus norvegicus with 91 samples.

Results

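Liver RNA of Wistar rats labelled with a dose of 50 mg/kg methylprednisolone was compared between 0.75 h after the drug and control. The comparison holds the 3 arrays labelled 45 minutes and the 4 arrays labelled as controls at time 0, which are 7 of the 47 arrays of the short course and of the 91 arrays of the whole series. Arrays were chosen by their titles alone, and all 8740 probe sets other than the manufacturer's controls were used. The labels of the controls carry the same wording of treatment and dose as the treated arrays and differ in the time, given as 0 hours or control. Neither route, vehicle, age, sex nor time of day is stated, and nothing says whether replicate arrays are separate animals. The errors and p-values thus speak only of how far arrays of the same time vary, with the spread pooled over all 47 arrays. That variation may be technical, and 7 arrays allow limited precision. The stated aim was to follow many genes over time, and the 0.75 h samples ask what had changed within the first hour.

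Methylprednisolone is a synthetic glucocorticoid. It binds the glucocorticoid receptor (Nr3c1) in the cytoplasm, and the receptor then moves to the nucleus, where it raises transcription at glucocorticoid response elements and restrains NF-kappaB and AP-1, the main activators of inflammatory genes. Transcripts that can change within an hour are mostly primary targets and immediate-early genes, which need no new protein synthesis, and the inhibitors that such genes encode then act as brakes on the signal. In liver, hepatocytes respond with enzymes of gluconeogenesis and amino acid breakdown, while resident macrophages (Kupffer cells) are a main source of cytokines.

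The tissue label was checked against 14 hepatocyte markers, whose summed signal ranged from 106960 to 144006 at 0.75 h and from 110722 to 301992 in the controls. Controls 3 and 4 (301992 and 234715) lay above controls 1 and 2 (110722 and 156753) in this sum. Albumin, 1 of the markers, read 0.152 in control 1 and 0.26 and 61.7 in 0.75 h replicates 2 and 3. It thus adds almost nothing to the sums of those arrays. 0.75 h replicate 1 stood apart in 13 markers of pancreas, with a summed signal of 34521 against 5916 and 6107 in replicates 2 and 3 and 4661 to 10404 in the controls. Trypsinogen (Prss1) read 5052 there and 14.3 and 28.9 in the other 0.75 h arrays. Among all other arrays of the short course, 4 h replicate 2 (35398) and 8 h replicate 3 (18481) had high pancreas sums, and the 43 arrays other than these 3 and control 1 lay between 4365 and 8454. Median signals were 200.4 to 234.5 at 0.75 h and 189.3 to 225.7 in the controls. The log2 ratio of the 3' to the 5' GAPDH probe sets, a measure of RNA quality, was 0.08, -0.13 and -0.22 at 0.75 h and -0.05 to 0.26 in the controls. The same ratio of actin was 0.05, -0.18 and -0.18 at 0.75 h and 0.12, -0.09, 0.63 and 0.30 in controls 1 to 4, highest in controls 3 and 4.

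At 0.75 h, few transcripts had separated from the controls. The inhibitor of NF-kappaB (Nfkbia), the mRNA-destabilising protein Zfp36, the stress phosphatase subunit Ppp1r15a, the cytokines Il1b and Il10, the autophagy protein Vmp1 and the mitochondrial polymerase subunit Polg2 were higher, by 2.46-fold to 8.00-fold. Obp3, a lipocalin of the alpha-2u globulin family made by rat liver, was 10.5-fold lower. In all, 9 probe sets of these 8 genes passed an adjusted p of 0.05 (limma, Benjamini-Hochberg), 0.103% of those tested, with 8 higher (0.0915%) and 1 lower (0.0114%). By the brightest probe set of each gene, 5 of 4736 genes passed (0.106%), 4 higher (0.0845%) and 1 lower (0.0211%). An unadjusted p under 0.05 was reached by 672 probe sets (7.69%), and the median log2 change over all probe sets was 0.02. No probe set passed when 0.75 h replicate 1, control 3 or control 4 was left out (563, 469 and 439 at an unadjusted p under 0.05, limma), and the count was 26 without control 2 and 5 without 0.75 h replicate 2. With controls 1 and 2 alone as the reference it was 0, with 282 at an unadjusted p under 0.05 by limma, a setting chosen after the data were seen. Over the 20 to 22 alternatives run for each of the 9 probe sets, the adjusted p ranged from 0.00219 to 0.48 (limma), and 0 changed sign.

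Changes below are log2 differences on the log2(signal + 32) scale, ± standard error, which understates the change of dim probe sets. Signals are the deposited linear values in array units and are compared only within a probe set.

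Nfkbia encodes IkappaB-alpha, which holds NF-kappaB in the cytoplasm and is itself a target of both NF-kappaB and the glucocorticoid receptor. Its brighter probe set (X63594cds_at) read 395.5, 528.5, 368.5 and 293 in controls 1 to 4, and 4896, 1953 and 1368 in 0.75 h replicates 1 to 3. Every 0.75 h array lay above every control, and replicate 1 was the highest. The difference was 2.51 ± 0.46 (5.69-fold, adjusted p = 0.0138, limma), and it was 1.99 without 0.75 h replicate 1 (adjusted p = 0.254, limma). A partner probe set of the same sequence (X63594cds_g_at) gave 2.97 ± 0.59 (7.85-fold, adjusted p = 0.0273, limma), from 221.2 to 447.1 in the controls to 1579 to 5596 at 0.75 h. These probe sets share their target and are not independent.

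Zfp36 (tristetraprolin) binds AU-rich elements and speeds the decay of cytokine mRNAs. It read 1636, 1844, 933.7 and 1021 in the controls and 8689, 3356 and 4312 at 0.75 h (rc_AA800613_at). The groups did not overlap, and replicate 1 was again the highest. The rise was 1.92 ± 0.35 (3.78-fold, adjusted p = 0.0138, limma), and 1.52 without 0.75 h replicate 1 (adjusted p = 0.227, limma). The gene's dimmer probe set (X63369cds_at) differed by 1.57 (adjusted p = 0.0818, limma).

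Ppp1r15a (GADD34) directs a phosphatase to the translation factor eIF2-alpha and so relieves the block of translation under stress. Its probe set AF020618_at read 41.2, 55.5, 37.1 and 26.8 in the controls, close to the added constant of 32, and 1284, 440.4 and 268.1 at 0.75 h. The lowest 0.75 h array was still above the highest control. The difference of 3.00 ± 0.62 (8.00-fold, adjusted p = 0.0337, limma) became 2.40 without replicate 1 (adjusted p = 0.397, limma). The gene's brighter probe set (AF020618_g_at) gave 2.17 (adjusted p = 0.137, limma), with 128.3 to 443.1 in the controls and 738.5 to 2905 at 0.75 h, also with no overlap.

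Interleukin-1 beta (Il1b), a pro-inflammatory cytokine of macrophages, read 65.2, 161.3, 165.3 and 41.1 in the controls and 2129, 708.6 and 448.9 at 0.75 h (E01884cds_s_at). All 3 treated arrays lay above the controls. It rose by 2.84 ± 0.61 (7.14-fold, adjusted p = 0.0471, limma), and the difference was 2.22 without replicate 1 (adjusted p = 0.427, limma). The brightest probe set of the gene (M98820_at) gave 2.33 (adjusted p = 0.121, limma).

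Interleukin-10 (Il10), an anti-inflammatory cytokine, was near the bottom of the scale in the controls, at 45.5, 16.3, 13.3 and 20.0, and read 189.7, 78 and 146.1 at 0.75 h (L02926_s_at). The groups were again apart, and here replicate 3 was closer to replicate 1 than replicate 2 was. The rise was 1.58 ± 0.32 (2.99-fold, adjusted p = 0.0273, limma). Its brighter probe set (X60675_at) gave 1.00 (adjusted p = 0.121, limma), from 114.5 to 190.4 in the controls to 222.8 to 547.9 at 0.75 h. The called probe sets of Ppp1r15a, Il1b and Il10 are not the brightest of their genes, and these genes were singled out after their values were seen.

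Vmp1 encodes a membrane protein of the endoplasmic reticulum needed for autophagosome formation. It read 1260, 1430, 917.3 and 782.8 in the controls and 3089, 2532 and 2452 at 0.75 h (rc_AA859954_at). The 3 treated arrays were close together and all above the controls. The rise of 1.30 ± 0.23 (2.46-fold, adjusted p = 0.0138, limma) became 1.20 without replicate 1 (adjusted p = 0.16, limma), and 0.98 against controls 1 and 2 alone (adjusted p = 0.48, limma).

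Polg2, the accessory subunit of the mitochondrial DNA polymerase, is measured here by a probe set drawn from an expressed sequence tag (rc_AA892950_at). It read 401.6, 585, 329.4 and 211 in the controls and 2311, 2109 and 1074 at 0.75 h. No control reached the lowest treated array. The rise was 2.18 ± 0.41 (4.52-fold, adjusted p = 0.0154, limma), and 1.97 without replicate 1 (adjusted p = 0.191, limma).

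Obp3 was the lone probe set past the threshold downwards. Its signals were 2828, 399.1, 892.4 and 1792 in the controls and 118, 78.9 and 58.9 at 0.75 h (J00738_s_at). Controls differed among themselves more than for the other called probe sets, but each was above all treated arrays. The fall was -3.39 ± 0.73 (10.5-fold lower, adjusted p = 0.0471, limma), and -3.58 without replicate 1 (adjusted p = 0.185, limma). A second probe set of Obp3 (X14552_at) differed by -0.72 (adjusted p = 0.675, limma), so the probe sets of this multigene family disagree. Its members are near-identical, and probes may read several of them.

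**Figure D1:**
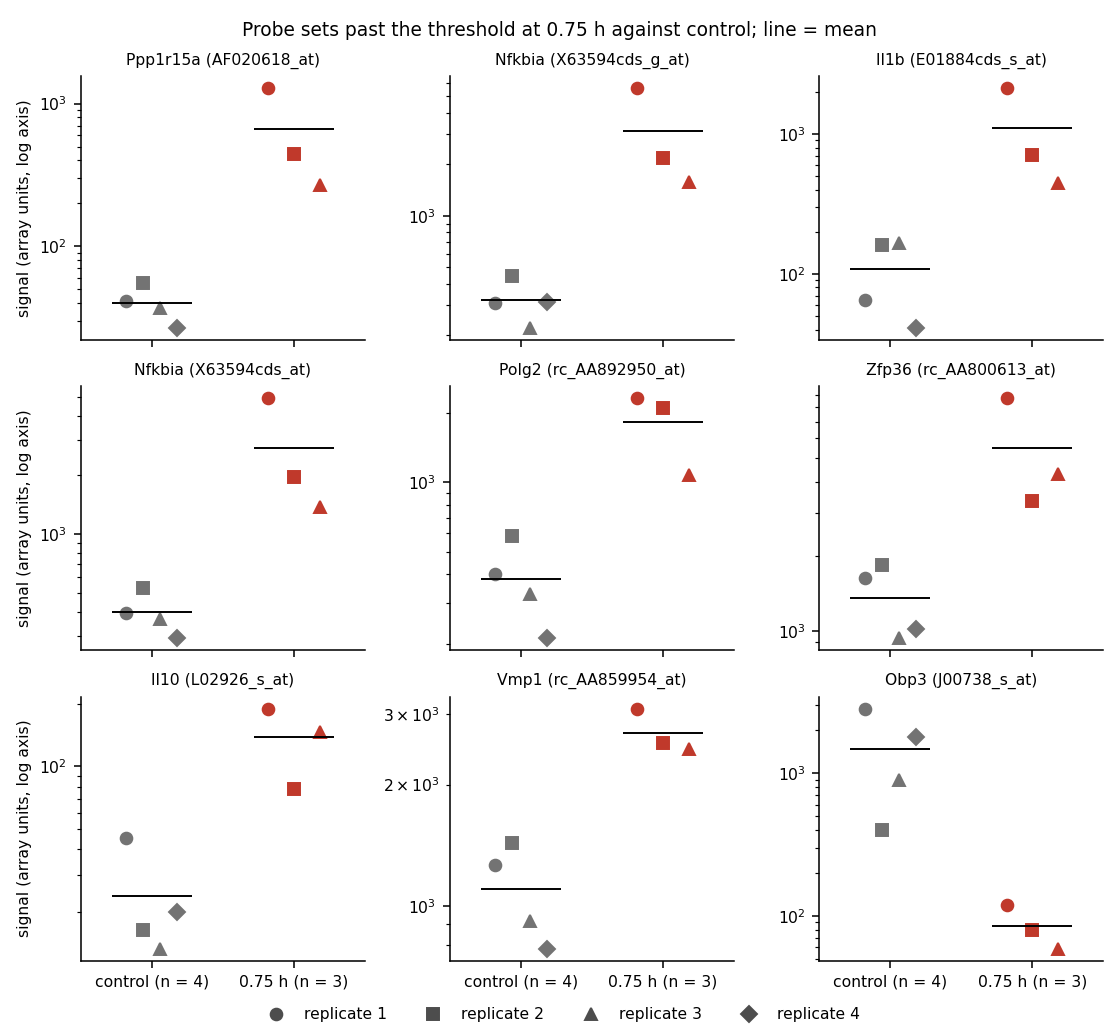
Signal in array units (log axis) of the 9 probe sets past the threshold, in the 4 controls (grey) and the 3 arrays at 0.75 h (red); marker shapes give the replicate number and lines the group means. In all 9 panels the groups do not overlap, and 0.75 h replicate 1 (circle) is the highest treated array in every one of the 9, including Obp3, where it reads 118.

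The promoters of the called genes were read in RefSeq sequence of the rat assembly GRCr8, over the 250 bases before the start of transcription, for 7 of the 8 genes (Il10 is named only). Motifs searched on both strands were TGTTCT (1 arm of a glucocorticoid response element), TGACGTCA (cAMP response element), TGAGTCA (AP-1 site), GGGANTTCC (NF-kappaB site) and CCATATTAG (core of a serum response element). These were found in 17.5%, 1.59%, 4.05%, 1.43% and 0.0777% of 33469 rat promoters of that length. The 3 sequences with a match are printed because they show where the letters stand, 5' to 3' on the strand of the gene, with matches in capitals.
Ppp1r15a: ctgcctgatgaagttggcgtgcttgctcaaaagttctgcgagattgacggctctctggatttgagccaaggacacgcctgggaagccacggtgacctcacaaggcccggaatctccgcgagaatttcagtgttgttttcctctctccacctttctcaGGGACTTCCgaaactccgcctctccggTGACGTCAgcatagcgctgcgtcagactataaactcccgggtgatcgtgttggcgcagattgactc
Vmp1: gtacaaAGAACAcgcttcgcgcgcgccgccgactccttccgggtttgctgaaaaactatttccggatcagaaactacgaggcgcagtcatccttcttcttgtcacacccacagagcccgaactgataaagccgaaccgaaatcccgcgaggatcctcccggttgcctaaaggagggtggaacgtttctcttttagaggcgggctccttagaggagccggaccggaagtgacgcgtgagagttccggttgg
Obp3: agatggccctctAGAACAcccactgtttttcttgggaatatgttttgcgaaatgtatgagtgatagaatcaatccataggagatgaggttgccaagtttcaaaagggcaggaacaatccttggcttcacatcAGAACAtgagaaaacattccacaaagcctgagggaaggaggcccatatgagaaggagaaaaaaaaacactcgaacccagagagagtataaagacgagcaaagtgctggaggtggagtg
Ppp1r15a lies on the minus strand, with this window at chr1:105139597-105139846, and holds an NF-kappaB match 93 bases and a cAMP response element match 66 bases before the start. The window of Vmp1 (chr10:72002320-72002569, minus strand) holds TGTTCT in reverse (AGAACA) at -244. That of Obp3 (chr5:79640676-79640925, minus strand) holds it in reverse at -238 and -118. Thus 2 of the 7 matched genes hold TGTTCT on either strand. The windows of Nfkbia, Il1b, Polg2 and Zfp36 hold none of the exact motifs searched. Longer or variant spellings of the NF-kappaB site were not searched. GGGAATTTCC, which has an added T, stands in the window of Polg2 and in reverse (GGAAATTCCC) in that of Nfkbia. A match is a description of sequence, and a window without one says nothing of the factor.

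The called genes were also followed over the rest of the short course, and whether their courses differ was not tested. The other times share the controls with 0.75 h, so the values are given side by side as levels. Nfkbia (X63594cds_at) was 396.4 ± 98.2 in the controls (SD, n = 4) and 2213 ± 1265 at 0.25 h (n = 3). Its level of 2739 ± 1890 at 0.75 h was below both 4521 ± 479.9 at 0.5 h and 5688 ± 1151 at 1 h (n = 3 each). Nfkbia was then 1358 ± 265.2 at 4 h and 424.1 ± 61.4 at 18 h (n = 3 each), and each array from 0.25 h to 12 h lay above every control. Ppp1r15a (AF020618_at) was 40.1 ± 11.9 in the controls and 654.1 ± 195.7 at 0.5 h, close to the 664.3 ± 543.9 at 0.75 h, then 790.8 ± 299.3 at 1 h and 292.2 ± 62.3 at 4 h. The SD of both genes was large at 0.75 h, where replicate 1 was high. Vmp1 was 1097 ± 299 in the controls and already 2978 ± 634.5 at 0.25 h, then 2691 ± 346.8 at 0.75 h and 3630 ± 340.6 at 5.5 h (n = 3), with every array above all controls from 0.25 h to 18 h. At 72 h it was 829.1 ± 2.53 (n = 2). Polg2 was 381.7 ± 156.7 in the controls, 1340 ± 962.1 at 0.25 h, 1831 ± 663.4 at 0.75 h and 3328 ± 776.9 at 1 h. Zfp36 was 1359 ± 449.6 in the controls, 7232 ± 1172 at 0.5 h, 5453 ± 2843 at 0.75 h and 7542 ± 2569 at 1 h, and every array from 0.25 h to 8 h lay above the controls. Il1b (E01884cds_s_at) was 4704 ± 259 at 0.5 h against 1096 ± 904.4 at 0.75 h and 2150 ± 1612 at 1 h. Il10 (L02926_s_at) was 196.1 ± 56.8 at 0.5 h, 137.9 ± 56.3 at 0.75 h and 85.7 ± 34.4 at 1 h. The low signal of Obp3, 85.3 ± 30.1 at 0.75 h against 1478 ± 1069 in the controls, was also seen at 0.25 h (138 ± 21.8) and 1 h (179.5 ± 103.1), and it was 131.4 ± 76.8 at 72 h. All its arrays from 0.25 h to 5 h lay below every control.

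**Figure D2:**
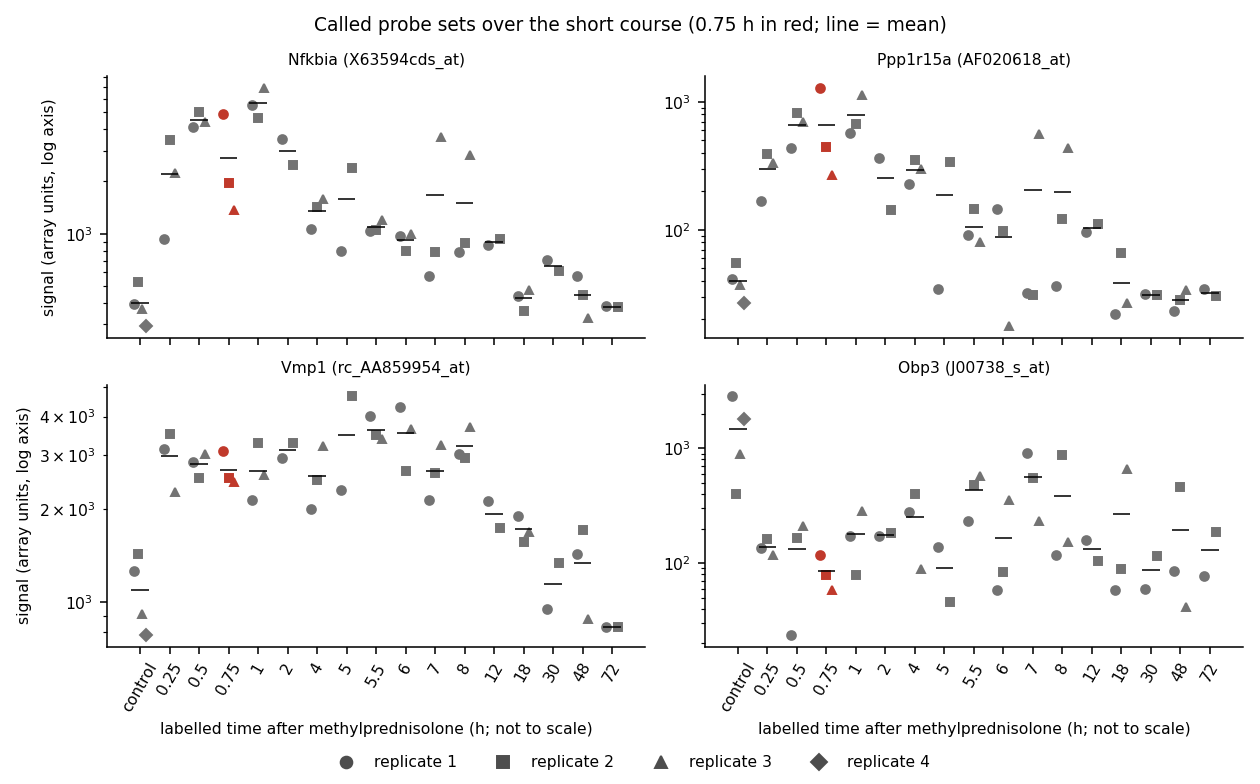
Signal in array units (log axis) of Nfkbia, Ppp1r15a, Vmp1 and Obp3 in each of the 47 arrays, by labelled time in hours (0.75 h in red; marker shapes give the replicate number, lines the group means). From 0.25 h, every array lies above all controls to 12 h for Nfkbia, to 4 h for Ppp1r15a and to 18 h for Vmp1. Some later Ppp1r15a arrays also lie above the controls. Obp3 lies below all controls to 5 h.

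Tyrosine aminotransferase (Tat), a classical glucocorticoid-induced liver enzyme, read 3341, 9713, 8588 and 4209 in the controls and 9337, 9391 and 8176 at 0.75 h. The treated arrays lay inside the range of the controls, and the difference was 0.61 ± 0.32 (adjusted p = 0.671, limma). The receptor gene Nr3c1 (M14053_at) read 294.2, 236, 246.7 and 265.1 in the controls and 158.8, 291.9 and 249.7 at 0.75 h. Its groups overlapped too, at -0.17 ± 0.27 (adjusted p = 0.926, limma).

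The 8 genes were then set beside 22 lists of pathway genes, read by the brightest probe set of each gene. For scale, 4.01% of all named genes (190 of 4736) had all 3 treated arrays above all 4 controls and 3.04% (144) had them below; over probe sets these were 347 (3.97%) and 275 (3.15%). Among 17 measured glucocorticoid-induced genes, 1 passed upwards (Nfkbia) and 0 downwards, 16 had a change above 0 and the median was 0.65, with 5 having treated arrays above all controls. The other 3 genes described from this list were picked after their values were seen. Sgk1, a kinase that regulates ion transport, read 333.1 to 454.1 in the controls and 2086, 1557 and 727.2 at 0.75 h, with no overlap (1.65 ± 0.40, adjusted p = 0.121, limma). The transcription factor Cebpd differed by 1.89 ± 0.79 (adjusted p = 0.545, limma), again with the groups apart. Igfbp1, a secreted binder of insulin-like growth factors, read 867.3, 9377, 433.2 and 2091 in the controls and 11580, 9643 and 7780 at 0.75 h, so that control 2 overlapped the treated range (2.49 ± 1.08, adjusted p = 0.573, limma). The list median was 1.0, 0.69 and 0.45 in 0.75 h replicates 1 to 3.

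Of 29 immediate-early genes, which are switched on within minutes of a signal, Zfp36 passed upwards and 0 downwards, and the median was 0.38. In 6 of them the treated arrays lay above all controls. Singled out after their values were seen, the small GTPase Rhob read 421.7 to 967.6 in the controls and 2660, 1930 and 1534 at 0.75 h, and differed by 1.83 ± 0.42 (adjusted p = 0.0883, limma). The transcription factor Myc read 130.2 to 282.8 in the controls and 1125, 955.2 and 617.6 at 0.75 h (1.97 ± 0.73, adjusted p = 0.485, limma). Jun, a subunit of AP-1, read 365.1 to 1290 against 4380, 1898 and 1390 (1.93 ± 0.82, adjusted p = 0.552, limma). Fos, the partner of Jun, overlapped the controls, at 451.9 to 870.7 against 1459, 662.3 and 1321.

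Of 13 feedback brakes of inflammation, Nfkbia and Zfp36 passed upwards and 0 passed downwards, with a median of 0.47 and 4 members apart from the controls on the high side. Of 12 genes of NF-kappaB signalling, Nfkbia alone passed, and the median was 0.39. Of 28 chemokines, cytokines and adhesion molecules, 0 passed in either direction by their brightest probe set (limma), 23 had a change above 0 and the median was 0.49. That median was 0.88 in replicate 1, 0.23 in replicate 2 and 0.40 in replicate 3, and 0.24 without replicate 1. The chemokine Ccl3, which attracts monocytes, read 21.6, 71.9, 107.6 and 14.8 in the controls and 2651, 318.7 and 536.1 at 0.75 h (3.39 ± 0.79, adjusted p = 0.105, limma). All treated arrays of Ccl3 were above the controls, replicate 1 by far the most. The neutrophil attractant Cxcl2 read 5.85 to 21.7 in the controls and 939.2, 19.7 and 226.3 at 0.75 h, so that replicate 2 lay among the controls (adjusted p = 0.535, limma). Tumour necrosis factor (Tnf), added after its values were seen, was likewise high in replicate 1, at 544, while 39.9 and 47.5 in replicates 2 and 3 were close to the controls at 26 to 46.1. Beside these, the summed signal of 9 neutrophil markers was 7887 to 15190 at 0.75 h and 1998 to 26260 in the controls, and their median change was 0.61, or 0.25 without replicate 1. In 11 markers of Kupffer cells and macrophages the sums were 20520 to 22230 and 13810 to 21860, with a median change of 0.30. Of the marker genes 0 passed in any of the 11 lists. Their part in the cytokine values was not tested, and in bulk RNA a change in the number of cells of a type cannot be told apart from a change in RNA per cell. The median over 14 interferon-induced genes was 0.19, with 0 past the threshold.

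The pathway lists with the medians farthest below 0 were those of plasma proteins made by hepatocytes. Among 23 acute-phase proteins, which the liver secretes in inflammation, 0 passed, the median was -0.40 and 6 had treated arrays below all controls. The haem binder haemopexin (Hpx) read 628.8, 30.0, 24660 and 22170 in the controls and 16.7, 0.0505 and 0.104 in the treated arrays (adjusted p = 0.289, limma). Kininogen (Kng2) read 10030, 2951, 27840 and 22840 against 137.2, 514.9 and 0.163 (adjusted p = 0.449, limma). Both were also listed near 0 in other arrays, such as 0.131 for Hpx and 0.0812 for Kng2 in 0.25 h replicate 2, so the sizes of these differences have no clear reading and are not given. Complement C3, chosen after its values were seen, read 8582 and 8893 in controls 1 and 2, 26990 and 19590 in controls 3 and 4, and 7162, 3892 and 2306 at 0.75 h (-1.81 ± 0.46, adjusted p = 0.137, limma). Controls 3 and 4 were the high ones in each, as in the hepatocyte marker sums and in the 3' to 5' ratios of actin (0.63 and 0.30) and GAPDH. The part of these in the list values was not tested. Albumin (Alb) read 0.152 in control 1 but 7879 to 32410 in the other controls, and 8796, 0.26 and 61.7 in 0.75 h replicates 1 to 3. Its difference (adjusted p = 0.667, limma) thus has no clear reading either. Over 26 secreted hepatocyte proteins 0 passed, 23 had a change below 0 and the median was -0.49. Apolipoprotein E (Apoe) differed by -1.50 (adjusted p = 0.511, limma) and the protease inhibitor Serpina1 by -1.11 (adjusted p = 0.452, limma). Against controls 1 and 2 alone these medians became -0.12 (acute phase) and -0.11 (secreted proteins), and under quantile normalization -0.18 and -0.08. The 14 hepatocyte markers had a median of -0.55, or -0.13 under quantile normalization.

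In the metabolic and maintenance lists 0 members passed in either direction (limma). Medians were -0.22 for gluconeogenesis (16 genes), -0.16 for amino acid breakdown (33), 0.09 for fatty acid oxidation (31), 0.04 for lipid synthesis (21), 0.11 for bile acids (16) and -0.11 for drug metabolism (49). Under quantile normalization the sign turned for lipid synthesis (-0.05) and drug metabolism (0.12). Haem oxygenase (Hmox1), which breaks down haem, read 1009, 2938, 1444 and 1775 in the controls and 5883, 5593 and 3367 at 0.75 h, with the groups apart (1.51, adjusted p = 0.289, limma). The nuclear receptor Nr0b2 (SHP), which represses bile acid synthesis, read 1167, 2772, 2232 and 2295 against 8338, 7517 and 3123 (1.51, adjusted p = 0.521, limma). Aspartate aminotransferase (Got1) differed by 1.20 (adjusted p = 0.521, limma) and the glutathione transferase Gsta3 by 1.09 (adjusted p = 0.49, limma), each with the treated arrays above all controls. The clock output gene Dbp (-0.81, adjusted p = 0.885, limma) and its activator Bmal1 (1.11, adjusted p = 0.675, limma) both overlapped the controls. Over the alternatives both changed sign, from -1.52 to 0.76 for Dbp and from -0.10 to 1.63 for Bmal1. Medians were -0.17 for clock genes (10), 0.06 for liver transcription factors (33), 0.13 for growth hormone and IGF signalling (32), 0.07 for heat-shock proteins (29), 0.14 for oxidant defence (25), 0.05 for oxidative phosphorylation (41), -0.04 for ribosomal proteins (37) and 0.17 for growth arrest and apoptosis (32). Under quantile normalization the sign turned for liver transcription factors (-0.01), oxidative phosphorylation (-0.03) and ribosomal proteins (0.21).

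Markers of the remaining cell types had medians near 0, apart from those of pancreas and the lone B cell gene. The 13 pancreas genes had a median change of 1.11, which was 3.13 in replicate 1 and -0.14 and -0.12 in replicates 2 and 3. Median changes were -0.03 for T and NK cells (16 genes), 0.00 for endothelium (8), 0.02 for stellate cells (14), 0.05 for cholangiocytes (9), 0.02 for erythroid cells (5), -0.04 for platelets (3) and 0.40 for Cd79b of B cells. Of the 8 endothelial genes 4 were above 0 and 4 below, and the receptor Lyve1 alone had its groups apart (0.79, adjusted p = 0.449, limma), while Cav1, a caveolar coat protein, differed by -0.11. Under quantile normalization the medians of stellate cells and erythroid cells turned to -0.03 and -0.06.

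**Figure D3:**
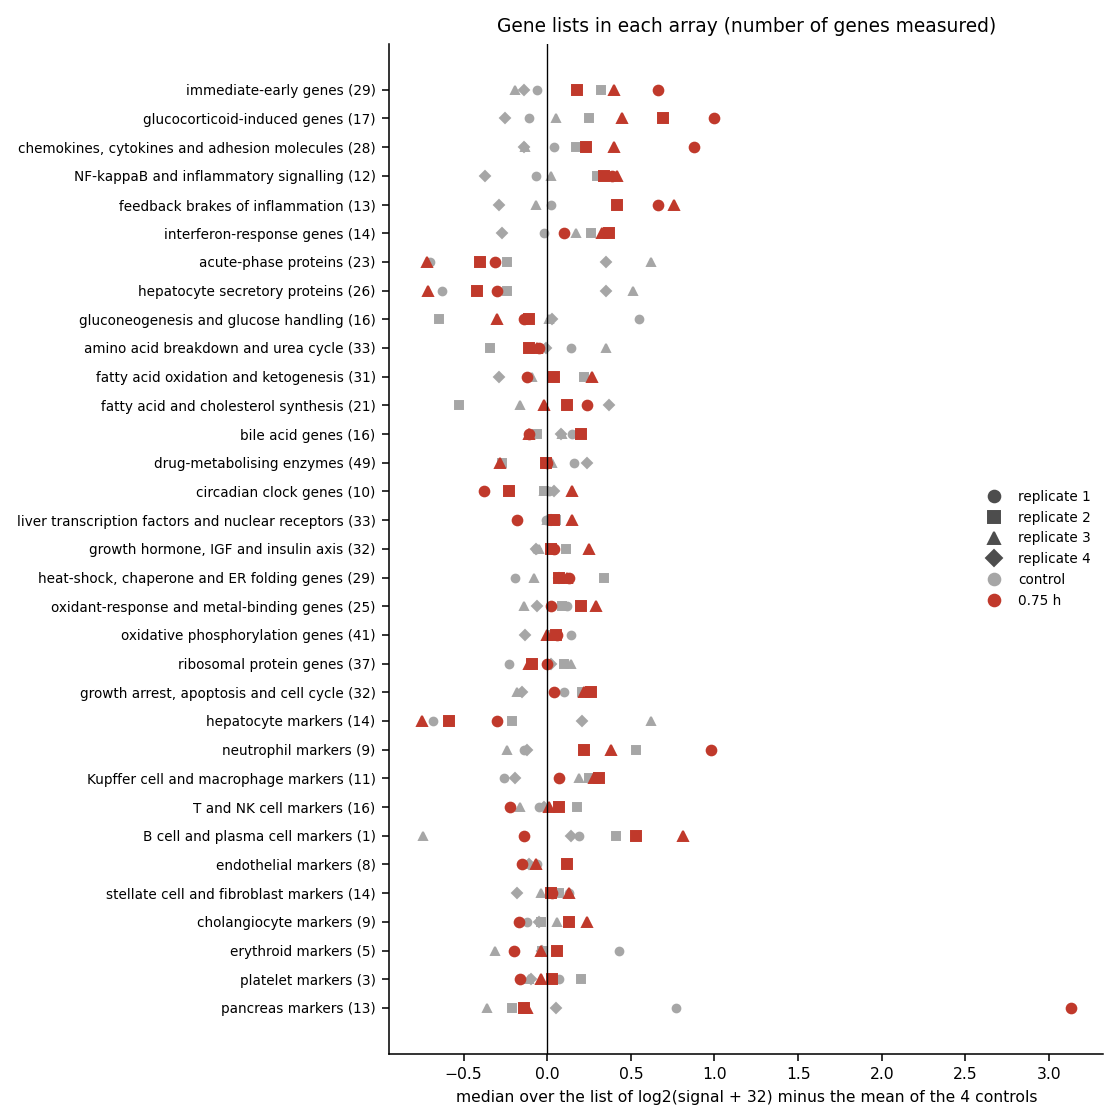
Median over each gene list of log2(signal + 32) minus the mean of the 4 controls, for every control (grey) and 0.75 h array (red), with marker shapes for the replicate number and the count of measured genes in brackets. The glucocorticoid-induced list lies at 1.0, 0.69 and 0.45 in the 3 treated arrays, and the pancreas markers lie at 3.13 in replicate 1 and at -0.14 and -0.12 in the others.

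Direct differences between 0.75 h and other times do not use the controls. Against 0.25 h no probe set passed (0.0%, limma), with 457 at an unadjusted p under 0.05 and a lowest adjusted p of 0.518. Against 1 h no probe set passed either (0.0%, limma), with 658 at an unadjusted p under 0.05 and a lowest adjusted p of 0.217. Neither result shows that the times are alike, since the arrays within 0.25 h and 1 h differed among themselves. Arrays were kept at their labelled times, and whether the labels of 0.25 h and 1 h hold for every array was not tested, so the means and tests given for these times may mix unlike samples. The labels of 0.5 h and 0.75 h were not tested either. Over all probe sets, the 0.75 h arrays correlated with each other at 0.965 to 0.973 and with 0.25 h replicate 3 at 0.971 to 0.976. They correlated with the 48 h arrays at 0.959 to 0.974 and with the controls at 0.937 to 0.97. The nearest array to 0.25 h replicate 2 was 0.5 h replicate 3 (0.973), and the nearest to 1 h replicate 2 was 2 h replicate 2 (0.972). These are correlations across probe sets, which are not independent, on arrays that share a scaling.

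Between 0.5 h and 0.75 h, the cytokine Il6 and the chemokines Ccl2 and Ccl4 were lower at the later time, and the iron exporter Slc40a1, the junction protein Cldn3 and the hormone receptor Pth1r were higher. In all 70 probe sets passed (0.801%, limma), 31 higher at 0.75 h (0.355%) and 39 lower (0.446%). By brightest probe set 37 genes passed (0.781%), 14 higher (0.296%) and 23 lower (0.486%). The share that was higher was 44.3% with the deposited scaling, 55.0% of 109 under quantile normalization and 68.6% of 118 under median centring. The count was 17 without 0.5 h replicate 1, 15 without 0.75 h replicate 2 and 16 without 0.75 h replicate 3.

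Neurl3, an E3 ubiquitin ligase gene, had the largest difference among the named genes past the threshold. It read 331.9, 582, 359.2 and 334.1 in the controls, 5020, 6639 and 5716 at 0.5 h, and 375.9, 330.0 and 351.7 at 0.75 h. The 0.75 h arrays were at the control level and far below every 0.5 h array (-3.91 ± 0.74, 15.1-fold lower, adjusted p = 0.00882, limma). At 0.25 h it read 390.5, 6454 and 372.4, and at 1 h 379.4, 5401 and 397.6, so that 1 array of each time was high. At 2 h Neurl3 read 1757 and 1454, above the controls and the 0.75 h arrays and below the 0.5 h arrays. Interleukin-6 (Il6), which drives the hepatic acute-phase response, read 1803, 2744 and 2131 at 0.5 h and 229.1, 121.5 and 77.3 at 0.75 h, above the controls at 13.1 to 58.7. It was 13.6-fold lower at 0.75 h than at 0.5 h (-3.77 ± 0.69, adjusted p = 0.00882, limma). Its 0.25 h values were 86.9, 1305 and 102.3, and its 1 h values 73.2, 1125 and 68.5, with replicate 2 the high one at both times. At 2 h Il6 read 468.6 and 227.4.

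The chemokine Ccl2, which recruits monocytes, read 10850, 9086 and 6665 at 0.5 h and 2651, 258.4 and 492.8 at 0.75 h. Only replicate 1 of the later time lay clearly above the controls (260.4 to 538.5), and the fall was -3.56 ± 0.77 (11.8-fold, adjusted p = 0.0158, limma). Ccl4, a related chemokine, read 2949, 3454 and 2675 against 1044, 114.1 and 182.9 (-3.23 ± 0.77, 9.41-fold, adjusted p = 0.0317, limma). The interleukin-1 receptor Il1r1 read 262.2, 681.3 and 353.9 at 0.5 h and 50.8, 49.9 and 46.2 at 0.75 h, which was 5.34-fold lower (-2.42 ± 0.60, adjusted p = 0.0428, limma). Of the 28 chemokines, cytokines and adhesion molecules, 0 were higher and 4 lower at 0.75 h (Ccl2, Ccl4, Il6 and Vcam1), with a median of -1.69 against -0.08 over all genes. Of 12 genes of NF-kappaB signalling, Il1r1 alone was lower, and the median was -0.97. Of 9 neutrophil markers 1 was lower, the collagenase Mmp8, and their median was -0.94.

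Among the genes higher at 0.75 h, the parathyroid hormone receptor Pth1r read 138.5, 48 and 113.8 at 0.5 h and 445, 468.9 and 517.5 at 0.75 h, where the controls read 432.1 to 498.8. The difference was 2.02 ± 0.39 (4.04-fold, adjusted p = 0.00882, limma). At 2 h Pth1r read 100.9 and 46.3, near its 0.5 h values. The AMP-activated kinase subunit Prkab1 read 197, 186.3 and 270.5 against 874, 672.2 and 1061 (1.84 ± 0.37, adjusted p = 0.00908, limma), and 1 h replicate 2 again lay apart, at 182 beside 666.3 and 540.1. At 2 h Prkab1 read 168.2 and 166.3, also near its 0.5 h values. The iron exporter Slc40a1 (ferroportin) read 318.6, 461.3 and 264.3 against 1397, 1616 and 2205, a difference of 2.23 ± 0.53 (4.68-fold, adjusted p = 0.0293, limma). The tight-junction protein Cldn3 differed by 2.33 ± 0.54 (5.04-fold, adjusted p = 0.0258, limma), with 533.8, 1175 and 896.7 at 0.5 h and 4362, 5017 and 3635 at 0.75 h. The mitochondrial dioxygenase homologue Alkbh7 differed by 1.85 ± 0.38 (adjusted p = 0.0104, limma), with 60.6 to 92.4 at 0.5 h and 333.3 to 391.1 at 0.75 h. In all 5 genes each 0.75 h array was above each 0.5 h array. Of 31 genes of fatty acid oxidation, Cpt1a, which admits fatty acids to mitochondria, was higher and 0 were lower, with a median of 0.53.

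**Figure D4:**
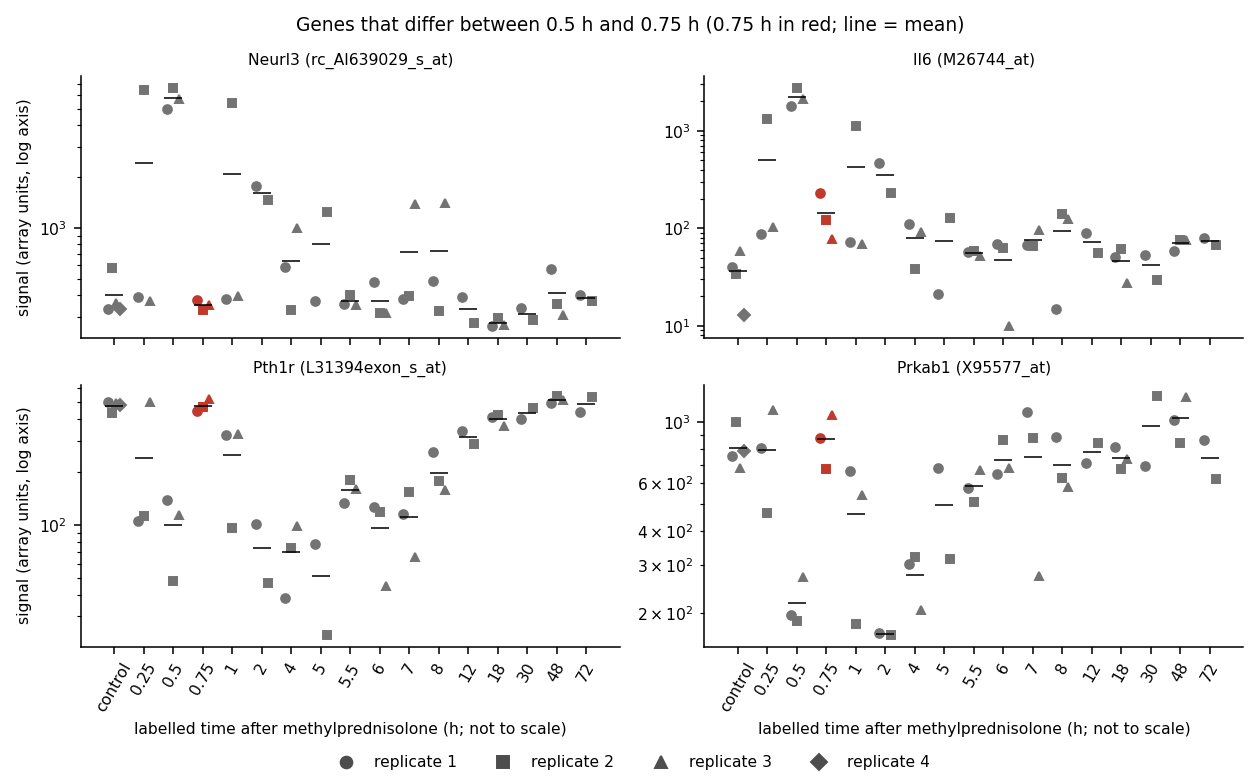
Signal in array units (log axis) of Neurl3, Il6, Pth1r and Prkab1 in each of the 47 arrays, by labelled time in hours (0.75 h in red; marker shapes give the replicate number, lines the group means). Neurl3 reads 5020 to 6639 at 0.5 h and 330.0 to 375.9 at 0.75 h, and replicate 2 at 0.25 h and 1 h lies with the 0.5 h arrays.

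The 4 h arrays differed from 0.75 h in 374 probe sets (4.28%, limma), 164 higher at 4 h (1.88%) and 210 lower (2.4%). By brightest probe set 214 genes passed (4.52%), 88 higher (1.86%) and 126 lower (2.66%). Leaving out 1 array brought the count to between 142 (without 4 h replicate 3) and 290 (without 4 h replicate 2). It was 165, 151 and 177 without 0.75 h replicate 1, 2 or 3, and 147 without 4 h replicate 1.

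Nr0b2, Ak4, Adh4, Slc40a1 and C5h1orf210 were lower at 4 h. The repressor Nr0b2 read 8338, 7517 and 3123 at 0.75 h and 433.6, 2324 and 619.6 at 4 h, with no overlap (-2.71 ± 0.64, 6.53-fold, adjusted p = 0.0119, limma). The bile acid hydroxylase Cyp7b1 went the other way, from 222.3, 202.6 and 194.9 to 1037, 1062 and 1174 (2.23 ± 0.55, 4.7-fold, adjusted p = 0.0162, limma). At 0.5 h Cyp7b1 already read 621.7, 681.4 and 1268, and the controls read 131.0 to 184.3. Of 16 bile acid genes 1 was higher (Cyp7b1) and 3 lower at 4 h (the bile acid receptor Nr1h4, Nr0b2 and the synthetic enzyme Hsd3b7), with a median of -0.78 against 0.07 over all genes. The adenylate kinase Ak4 read 3492, 2286 and 2480 against 135.2, 587.2 and 499.4 at 4 h (-2.85 ± 0.59, 7.2-fold, adjusted p = 0.00524, limma). Its 0.5 h arrays already read 923.4, 1140 and 385.9, below the controls at 1943 to 3776. The alcohol dehydrogenase Adh4 read 731.1, 1180 and 698.6 against 108.4, 311.1 and 29.8 (-2.61 ± 0.66, adjusted p = 0.0202, limma). C5h1orf210, for which no role is given here, fell by -3.63 ± 0.86 (12.4-fold, adjusted p = 0.0127, limma), and Slc40a1 by -2.39 ± 0.53 (5.23-fold, adjusted p = 0.00724, limma). These 2 genes also had no overlap between the times.

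Higher at 4 h was Il1r1, at 593.6, 613.1 and 513.8 against 50.8, 49.9 and 46.2 at 0.75 h (2.90 ± 0.60, 7.46-fold, adjusted p = 0.00543, limma). It was thus lower at 0.75 h than at both 0.5 h and 4 h, by separate tests that share the 0.75 h arrays. Nop58, a core protein of the ribosomal RNA methylation complex, read 2028, 2068 and 1678 at 4 h against 270, 323.4 and 453.9 (2.38 ± 0.43, 5.22-fold, adjusted p = 0.00274, limma). The guanylate cyclase receptor Gucy2c read 2137, 1247 and 2375 against 172, 86.6 and 686, with no overlap (2.86 ± 0.73, 7.27-fold, adjusted p = 0.0211, limma). At 0.5 h Gucy2c read 119.9, 97.1 and 133.8, below all its 4 h arrays. Its 0.25 h arrays differed among themselves, at 1415, 450.2 and 85.85. The fatty acid binding protein Fabp4 read 188.9, 210.7 and 489.5 against 21.3, 8.65 and 46.3, a difference of 2.45 ± 0.67 (5.48-fold, adjusted p = 0.0321, limma). Of 31 genes of fatty acid oxidation 4 were lower at 4 h (Acadl, Hadhb, Pdk2 and Etfa) and 0 higher, with a median of -0.65. Of 21 lipid synthesis genes 3 were lower (the regulator Srebf1 and the cholesterol enzymes Fdft1 and Dhcr7) and 0 higher, with a median of -0.57. Of 33 liver transcription factors 5 were lower (Nr1h4, Nr0b2, Rxrg, Nr3c2 and Srebf1) and 0 higher. Of 29 heat-shock genes 2 were higher (Hsph1 and Stip1, both chaperones or their partners) and 0 lower. List members named for these direct differences were picked after their values were seen.

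Where each array stands between these times was read over the probe sets that separate them, as a description. Over the 70 probe sets that separate 0.5 h from 0.75 h, the controls were nearer to the 0.75 h mean in 59, 63, 64 and 57. At 0.25 h, replicates 1 to 3 were nearer to 0.75 h in 42, 20 and 66, and at 1 h in 64, 6 and 54. At 2 h, replicates 1 and 2 were nearer to 0.75 h in 19 and 18. Thus 0.25 h replicate 3 and 1 h replicates 1 and 3 lay with 0.75 h in most of them. With 0.5 h lay 0.25 h replicate 2, 1 h replicate 2 and the 2 h arrays. Replicate 1 of 0.25 h lay in between. Over the 374 probe sets that separate 4 h from 0.75 h, the controls were nearer to 0.75 h in 316 to 333 and the 2 h arrays in 110 and 71. The 0.25 h arrays were nearer in 123, 174 and 346, and the 1 h arrays in 328, 140 and 298. In both sets the 4 controls and 0.25 h replicate 3 lay nearer to 0.75 h than 0.25 h replicates 1 and 2 did.

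**Figure D5:**
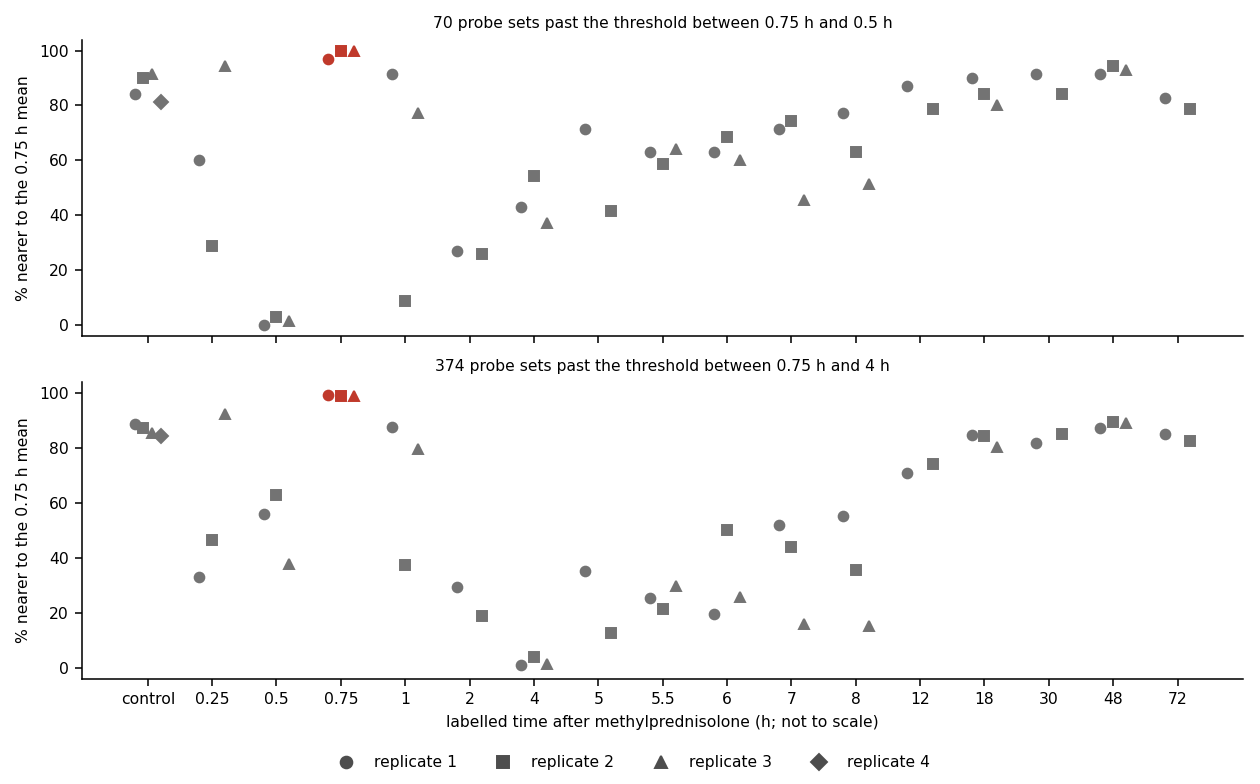
Percent of the 70 probe sets that separate 0.75 h from 0.5 h (top) and of the 374 that separate 0.75 h from 4 h (bottom) in which each of the 47 arrays lies nearer to the 0.75 h mean, by labelled time in hours (0.75 h in red; marker shapes give the replicate number). The 0.75 h, 0.5 h and 4 h arrays were used to choose the probe sets; the controls lie at or above 81.4% in both panels, and 1 h replicate 2 lies apart from the other 1 h arrays.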

How the data were processed

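The authors deposited 1 signal intensity per probe set and array, on a linear scale, in a table of an Affymetrix rat array with 8799 probe sets; the software that made it is not given in the sources used here. Of the 47 short-course arrays 46 shared a 2% trimmed mean near 801, and 6 h replicate 3, at 150, was multiplied to it. Control probe sets (59) were left out and no filter on low values was used. Titles gave the groups. No 2 of 1081 array pairs were identical (0 pairs).

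Values were taken as log2(signal + 32). One mean per time was fitted over all 47 arrays with limma 3.58.1 in R 4.3.3 (eBayes with a variance trend, 30 residual degrees of freedom), and p-values were adjusted by Benjamini-Hochberg over 8740 probe sets, with a threshold of 0.05. Gene symbols came from the platform annotation: 7006 probe sets had 1 symbol, 308 several and 1426 none, and 6985 of the 7006 gene identifiers were in RefSeq. A gene stands for its brightest probe set (4736 genes). Named were all genes past the threshold against control, Tat and Nr3c1, up to 4 called or 2 uncalled members of each list with the largest change, and the 5 largest direct differences each way. The comparison, its genes and the lists were chosen with earlier results of these data known. Lists were described by counts and medians, with no set test. Alternatives were other scalings, added constants, a filter on the dimmest 30% of probe sets, other sets of arrays, variance options, array weights, a replicate block and leaving out each array. On simulated data for the comparison with control (200 of 8740 probe sets changed) the code recovered 0%, 54% and 95.5% of log2 changes of 0.5, 1 and 2. Summaries and figures used Python 3.11.15, pandas 2.3.3, numpy 2.4.6 and matplotlib 3.10.9.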

Additional observations from a re-analysis of the deposited data

Results flagged for a closer look

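In 4 of 91 named probe sets 1 control lay far from the other 3 by Dixon's test, where chance gives about 1 in 20 groups. Control 2 was high for Hgf, the hepatocyte growth factor, at 348 and for Neurl3 at 582, and low for the peroxisomal oxidase Acox2 at 867.2. Control 4 was low for Ndufb6, a subunit of respiratory complex I, at 790.4.

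The direct differences between times past the threshold (limma) were also taken up because the test was of the difference itself. At 0.75 h against 0.5 h the log2 differences were -3.91 for Neurl3, -3.77 for Il6, -3.56 for Ccl2, -3.23 for Ccl4 and -2.42 for Il1r1. Those on the high side were 2.33 for Cldn3, 2.23 for Slc40a1, 2.02 for Pth1r, 1.85 for Alkbh7 and 1.84 for Prkab1. At 4 h against 0.75 h they were -3.63 for C5h1orf210, -2.85 for Ak4, -2.71 for Nr0b2, -2.61 for Adh4 and -2.39 for Slc40a1. Those higher at 4 h were 2.90 for Il1r1, 2.86 for Gucy2c, 2.45 for Fabp4, 2.38 for Nop58 and 2.23 for Cyp7b1.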

How the results depend on the processing

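For the 9 probe sets past the threshold against control, 111 of 193 values under the alternatives kept direction and call, 82 kept the direction but lost the call, and 0 reversed. Of 1417 such values for the 65 named probe sets not past it, 1408 kept the call and 9 passed. The count of calls was 9 under quantile normalization, 8 of them shared with the main setting. It was 6 to 8 with other constants, median centring, the filter or the deposited scale. With only the 7 arrays in the fit 1 probe set passed, downwards, and 0 of the 9 did. The count was 27 with array weights, 0 with controls 1 and 2 alone and 0 to 26 when 1 array was left out. Fewer arrays enter these comparisons, except with array weights. The count differed by which array was left out, at 26 without control 2 and 0 without control 3, and the causes were not tested. With the replicate number as a block the count was 0 (433 at an unadjusted p under 0.05, limma). Between 0.75 h and control, deviations of same-numbered arrays from their group means correlated at -0.06, -0.11 and -0.05. These values gave no sign of pairing by number, but so few arrays cannot show that it is absent. Whether the numbers mark a batch across the other times was not tested. The block gave 68 calls against 0.5 h and 336 at 4 h. Against 0.25 h the count was 0 under the other settings and 0 to 5 when 1 array was left out, and 1 h against 0.75 h gave 0 in every setting run, with the lowest adjusted p 0.0547 (limma). Against 0.5 h the 70 calls became 109 under quantile normalization, 118 under median centring and 15 to 64 when 1 array was left out. At 4 h the 374 calls became 142 to 290 when 1 array was left out. Neurl3 and Il6 against 0.5 h and Il1r1 and Nop58 at 4 h kept their calls under all 10 alternatives run for them. Of 99 recomputed list medians 15 moved. Dim probe sets and the number of arrays limit what could be detected.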
